A study of Mus musculus with 16 samples.

Results

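Collagens are the triple-helical proteins of the extracellular matrix, and their transcripts were measured in tumours grown from a mouse melanoma line with and without normal expression of Pros1, the gene of the anticoagulant and TAM receptor ligand protein S. The collagen genes were taken by symbol, as every protein-coding gene whose name is Col, a number, a and a number. That gave 44 genes of the 54532 in the table, namely 11 fibrillar chains, 6 type IV chains and 27 chains of other classes. Tumours came from B16F10 cells implanted under the skin of the right flank of C57BL/6J mice of both sexes, 8 weeks old, and RNA was taken from the disaggregated end-stage tumour. There were 4 groups of 4 libraries: BdP tumours under cisplatin, BdP tumours under PBS, WT tumours under cisplatin and WT tumours under PBS. All of them descend from B16F10. The BdP line is named Pros1-deficient in the titles and a Pros1 knockdown in another label, and the labels do not say whether it is 1 clone. Cisplatin, a platinum drug that crosslinks DNA, was injected into the peritoneum at 5 mg/kg once daily for 3 days, in 2 rounds that began 8 days after implantation, and the PBS groups were injected on the same schedule. The labels number the replicates without stating that each came from its own animal, so p-values measure the spread between these libraries, part of which may be technical.

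As background, each collagen molecule is a trimer of alpha chains, which are hydroxylated, glycosylated and folded in the endoplasmic reticulum before secretion. Fibrillar collagens such as types I, III and V form the rope-like fibrils of connective tissue and are made mainly by fibroblasts, whereas type IV collagen forms the sheet-like network of basement membranes around vessels, epithelia and muscle. In a bulk tumour the transcripts of tumour cells, stroma and vessels are measured together.

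Levels are given in FPKM, which divides the fragments counted on a gene by its length and by the depth of the library, as scaled between libraries by the authors. Reads assigned to genes numbered 10051843 (WT PBS 1) to 27055771 (BdP cisplatin 1) per library. WT PBS 1 held 2322202 reads outside the mitochondrial genome, against 9913661 to 26372101 in the other 15 libraries, and mitochondrial transcripts took 76.9% of its reads. Their share was 21.7% for WT cisplatin 4, 12.2% for WT cisplatin 3 and 2.03% to 5.06% elsewhere. Only 506 reads fell on collagen genes in WT PBS 1, against 5390 to 20065 in the others, and 1 read on a gene of 5000 bases was worth 0.102 FPKM there and 0.00627 to 0.0170 FPKM in the others. Pros1, the check of genotype, averaged 1.86 ± 0.457 FPKM in BdP tumours and 8.38 ± 2.76 FPKM in WT tumours (SD, n = 8 each), and every BdP library was lower than every WT library. Transcripts of the Y chromosome (Ddx3y, Eif2s3y, Kdm5d and Uty, summed) lay between 0.339 and 5.84 FPKM in 7 libraries, in which Xist, the RNA of the inactive X chromosome, was at most 0.0290 FPKM. The other 9 libraries held 0 to 0.123 FPKM of them and 0.314 to 5.17 FPKM of Xist. The 7 were BdP cisplatin 1 and 2, BdP PBS 3 and 4, WT cisplatin 1 and 2, and WT PBS 4, so every group held libraries of both kinds. Among the 7 the level differed by genotype, at 1.64 to 5.84 FPKM in 4 BdP and 0.339 to 0.826 FPKM in 3 WT libraries.

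The type IV collagen genes Col4a1 and Col4a2 led the family by mean level (the plot of levels by gene). Col4a1 averaged 17.5 ± 7.28 FPKM and Col4a2 12.2 ± 5.68 FPKM over all 16 libraries (SD), followed by Col16a1 at 5.71 ± 1.56, Col1a1 at 3.43 ± 2.25 and Col4a5 at 2.90 FPKM. Col4a1 stood at rank 2656 of the 12319 genes tested, so 21.6% of them had a higher mean. Col4a1 lay above Col4a2, and Col4a2 above Col16a1, in 16 of 16 libraries, and Col16a1 lay above Col1a1 in 13. Col1a1 was above Col4a5 in 8 of 16, so that pair of neighbours had no fixed order. Col4a5 was above Col15a1, the next, in 14 of 16. Below them, neighbours in the order of means changed places between libraries, the higher one leading in 6 to 11 of 16. In all, 18 of the 44 genes passed the filter for testing, which was at least 1 FPKM in at least 4 libraries: 4 of the 6 type IV chains, 7 of the 11 fibrillar chains and 7 of the 27 others.

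**Figure D1:**
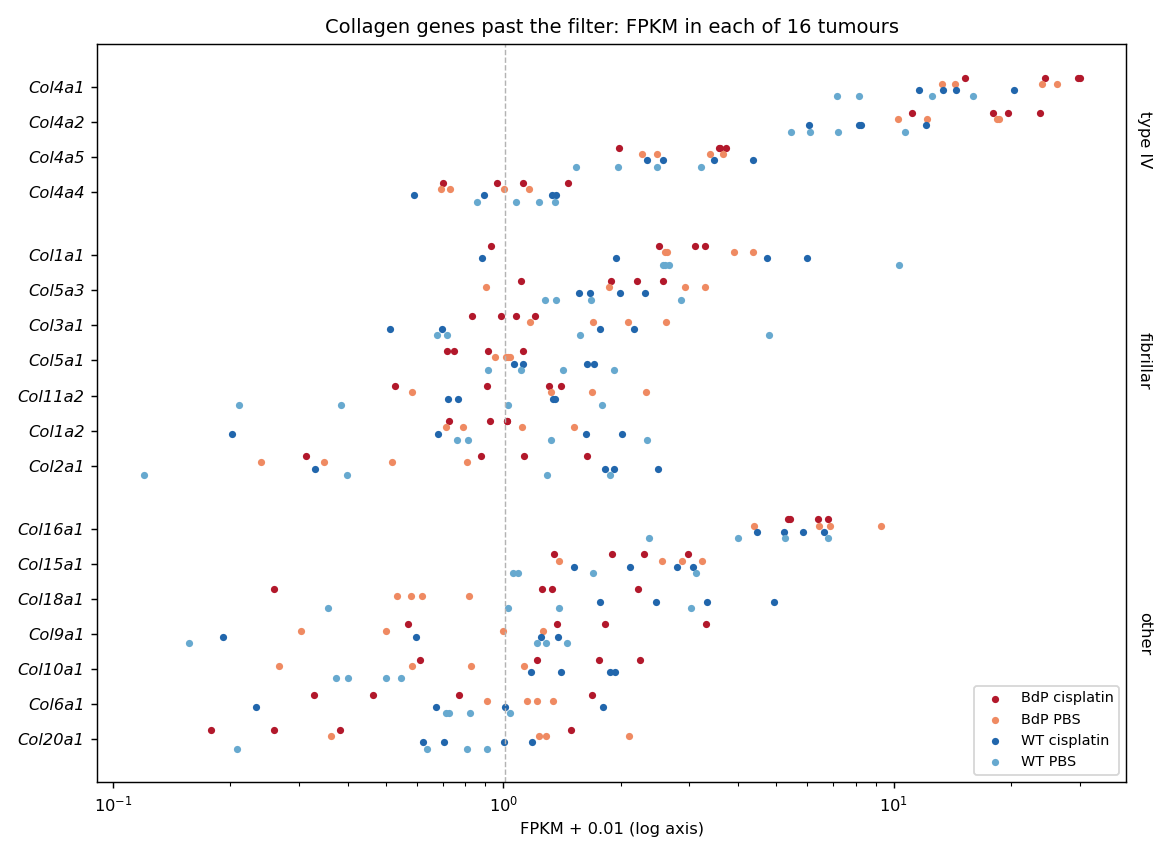
FPKM of the 18 collagen genes past the filter in each of 16 tumours, on a log axis after adding 0.01, with 1 point per tumour, coloured by group and ordered by class and mean. Col4a1 and Col4a2 have the highest means, while single points of Col16a1 and Col1a1 reach into their range. The dashed line marks 1 FPKM.

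Col4a1 and Col4a2 encode the chains of the common type IV trimer, and their genes lie head to head on chromosome 8 of GRCm38, Col4a1 (ENSMUSG00000031502) at chr8:11198423-11312826 on the minus strand and Col4a2 (ENSMUSG00000031503) at chr8:11312805-11449287 on the plus strand. As annotated, their first exons overlap by 22 bases. Col4a4 and Col4a3 are arranged likewise on chromosome 1, with 71 bases between them that hold no annotated exon. The stretch at each shared start is shown because the first pair of genes had high and parallel levels, whereas the second had unequal and low ones. Capitals mark the 22 bases that belong to both genes. Sequences are from the RefSeq assembly GRCm38.p6, with chr8:11312801-11312830 on the plus strand and chr1:82586850-82586920 on the minus strand.
Col4a1 and Col4a2 start region: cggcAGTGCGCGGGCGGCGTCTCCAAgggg
Col4a4 to Col4a3 gap: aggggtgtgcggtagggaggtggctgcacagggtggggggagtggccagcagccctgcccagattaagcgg
Promoter windows of 300 bases (250 before and 50 after the RefSeq start) were available for 35 of the 44 genes. Those of Col4a1 and Col4a2 share 78 bases and held 74.0% and 73.7% G or C, against a median of 52.7% over 32851 windows. On both strands, the GC box letters GGGCGG occurred 1 time in the Col4a1 window and 3 times in the Col4a2 window, and 35.7% of all windows held them. CCAAT occurred 1 time in each window (37.4% of all windows), and TATAAA occurred in neither (13.6% of all windows). The 71 bases between Col4a4 and Col4a3 held none of the 3, which 20.7%, 13.3% and 4.41% of 71-base windows just before a start held. A match of letters describes the sequence only.

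Higher transcript levels of Col4a1 and Col4a2 in BdP tumours were the only collagen differences called in limma on log2(FPKM + 1). Col4a1 measured 29.98, 29.7, 15.2 and 24.5 FPKM in BdP cisplatin tumours and 13.3, 14.4, 23.9 and 26.2 FPKM in BdP PBS tumours, against 13.4, 20.3, 11.6 and 14.5 FPKM in WT cisplatin tumours and 7.13, 12.5, 8.12 and 15.96 FPKM in WT PBS tumours. The 5 highest values all came from BdP tumours, with WT cisplatin 2 next, and the ranges of the genotypes overlapped. Col4a2 measured 23.7, 19.6, 11.2 and 18.0 FPKM in BdP cisplatin tumours and 12.2, 10.3, 18.4 and 18.6 FPKM in BdP PBS tumours, against 8.15, 12.1, 6.07 and 8.23 FPKM in WT cisplatin tumours and 6.11, 7.19, 5.44 and 10.7 FPKM in WT PBS tumours. Only WT cisplatin 2 and WT PBS 4 reached into the range of the BdP libraries, which began at 10.3 FPKM. Col4a2 averaged 16.5 ± 4.75 FPKM in BdP tumours and 7.996 ± 2.35 FPKM in WT tumours (SD, n = 8 each), and the averages of Col4a1 were 22.1 ± 6.87 and 12.9 ± 4.23 FPKM in BdP and WT tumours. In limma on log2(FPKM + 1), averaged over both treatments, Col4a2 was higher by 0.95 ± 0.18 (moderated SE, as for all log2 fold changes here; Benjamini-Hochberg adjusted p = 0.00843 over all genes tested) and Col4a1 by 0.73 ± 0.20 (adjusted p = 0.0471). Those were 2 of the 18 collagens tested, both higher and none lower, where 5.86% of all genes tested were called (2.77% higher and 3.09% lower). The 2 genes share 1 locus and varied together, so they are not independent calls. Other genes of that stretch of chromosome 8 were not examined here. A difference between the cell lines at that locus and an effect of Pros1 cannot be told apart in this design. After division by each library's FPKM sum (TPM), which moves the median of all genes by 0.45, the same contrast called 399 genes higher and 36 lower, against 341 and 381 in FPKM, and neither collagen passed (adjusted p = 0.0764 for Col4a2 and 0.191 for Col4a1). At an unadjusted p below 0.05 there were 4 collagens, the same pair higher and Col18a1 and Col5a1 lower, where 25.8% of all genes passed. The Col4a1 call was near the threshold and was lost without any 1 of 10 libraries in turn, namely BdP cisplatin 1, 2 or 4, BdP PBS 3 or 4, WT cisplatin 1, 3 or 4, or WT PBS 1 or 2 (log2 fold change 0.65 to 0.83, adjusted p 0.0297 to 0.0980 over all 16). It was also lost in limma voom on recovered reads (0.72, adjusted p = 0.0504), where Col4a2 was called (1.01 ± 0.20, adjusted p = 0.00904). The Col4a2 call held without each of the 16 (0.88 to 1.05, adjusted p 0.00475 to 0.0213). Without the 3 libraries richest in mitochondrial reads neither was called, with Col4a2 at 0.81 (adjusted p = 0.0581) and Col4a1 at 0.57 (adjusted p = 0.162).

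Within each treatment no collagen passed the adjusted threshold in limma on log2(FPKM + 1). Under PBS the log2 fold change was 0.92 ± 0.26 for Col4a2 (14.8 ± 4.28 FPKM in BdP and 7.36 ± 2.34 FPKM in WT tumours, SD, n = 4 each; limma adjusted p = 0.104) and 0.78 ± 0.29 for Col4a1 (19.4 ± 6.58 and 10.9 ± 4.09 FPKM in BdP and WT tumours; adjusted p = 0.172). Under cisplatin it was 0.98 ± 0.26 for Col4a2 (18.1 ± 5.23 FPKM in BdP and 8.63 ± 2.50 FPKM in WT tumours; adjusted p = 0.0945) and 0.68 ± 0.29 for Col4a1 (24.8 ± 6.90 and 14.9 ± 3.78 FPKM in BdP and WT tumours; adjusted p = 0.316). Called genes were 0.99% of all tested under PBS and 1.07% under cisplatin. The count of 0 collagens compares with 3 of 18 under PBS and 4 of 18 under cisplatin at an unadjusted p below 0.05, where 19.3% and 13.8% of all genes passed. Limma voom on recovered reads also called 0 collagens in each, where it called 123 of all genes under PBS and 231 under cisplatin.

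Levels of both genes also differed within most groups between libraries with and without Y-chromosome transcripts. In 3 of the 4 groups every library with Y-chromosome transcripts was higher in Col4a1 and in Col4a2 than every library without. The groups were split 2 against 2 or 1 against 3, and the 2 genes varied together. How many of all genes kept the same order was not counted, so it is a description only. The exception was the WT cisplatin group, where library 1 lay below library 4. Among libraries with Y-chromosome transcripts, Col4a1 ran from 23.9 to 29.98 FPKM in 4 BdP libraries and from 13.4 to 20.3 FPKM in 3 WT libraries. Among those without, it ran from 13.3 to 24.5 FPKM in 4 BdP libraries and from 7.13 to 14.5 FPKM in 5 WT libraries. Col4a2 separated the genotypes in both classes, at 18.4 to 23.7 FPKM in BdP and 8.15 to 12.1 FPKM in WT libraries with Y-chromosome transcripts, and at 10.3 to 18.0 FPKM in BdP and 5.44 to 8.23 FPKM in WT libraries without. Every BdP library lay above every WT library for 3 of the 18 collagens with Y-chromosome transcripts (Col4a1, Col4a2 and Col3a1; 11.2% of all genes) and for Col4a2 alone without (2.48% of all genes). Every BdP library lay below every WT library for 2 collagens with Y-chromosome transcripts (Col18a1 and Col2a1; 9.51% of all genes) and for 0 without (2.79% of all genes). With a term for these transcripts in the limma fit, an alternative added after the values were seen, Col4a2 was higher under PBS (0.77 ± 0.16, adjusted p = 0.0275; 2.22% of all genes called), under cisplatin (0.98 ± 0.16, adjusted p = 0.00628; 1.51% called) and averaged over both (0.88 ± 0.11, adjusted p = 0.000581; 12.5% called). In that fit Col4a1 was higher when averaged over both treatments (0.65 ± 0.13, adjusted p = 0.00981) but not called within either. Summed leukocyte markers also had other ranges on the sides of this split, at 94.98 to 289.7 FPKM with and 217 to 631 FPKM without Y-chromosome transcripts in BdP tumours, and at 13.2 to 63.6 FPKM with and 41.1 to 353 FPKM without in WT tumours. Summed macrophage markers lay at 60.9 to 275 FPKM with and 267 to 802 FPKM without in BdP tumours, and at 46.6 to 121 FPKM with and 180.3 to 805 FPKM without in WT tumours. Summed fibroblast markers lay at 43.6 to 58.7 FPKM with and 57.4 to 90.6 FPKM without in BdP tumours, and at 28.6 to 46.6 FPKM with and 37.2 to 74.6 FPKM without in WT tumours. That sum was mostly Fbln1, Pdpn and Thy1, at means of 27.9, 14.9 and 9.60 FPKM. The next marker of the list, Pdgfrb, averaged 0.625 FPKM. The part of these marker lists in the levels of Col4a1 and Col4a2 was not tested.

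**Figure D2:**
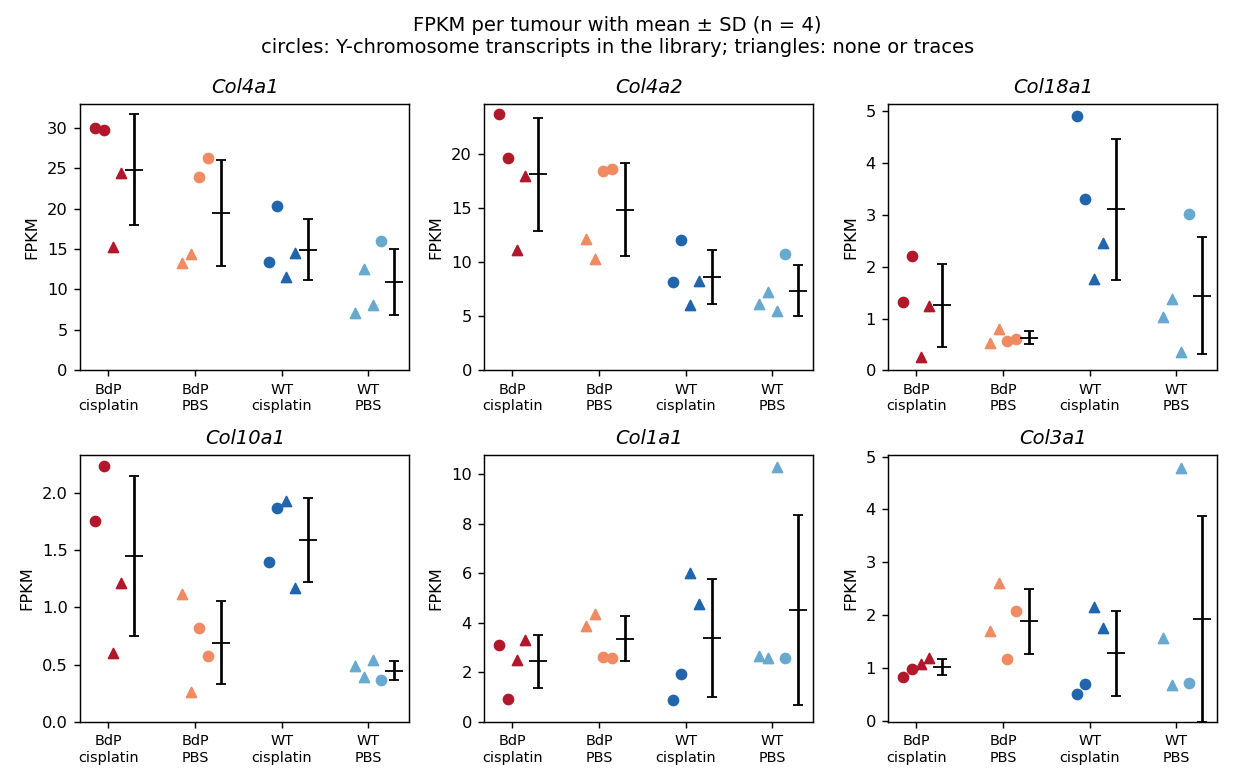
FPKM of 6 collagen genes in each tumour, with BdP groups left of WT groups, 1 point per tumour and the mean ± SD of 4 beside it; circles are libraries with Y-chromosome transcripts and triangles those with none or traces. Col4a1 and Col4a2 are highest in the BdP groups, Col10a1 is higher in every WT cisplatin tumour than in any WT PBS tumour, and 1 WT PBS tumour stands apart in Col1a1 and Col3a1.

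The other type IV chains were lower and showed no genotype difference that passed the test. Col4a5 measured 3.57, 3.57, 1.97 and 3.71 FPKM in BdP cisplatin tumours and 2.46, 2.25, 3.38 and 3.65 FPKM in BdP PBS tumours, against 3.45, 4.36, 2.32 and 2.56 FPKM in WT cisplatin tumours and 1.52, 2.47, 1.96 and 3.20 FPKM in WT PBS tumours. All 4 groups overlapped, and BdP cisplatin 3 was the low library of its group. Col4a5, a chain of the alpha3-alpha4-alpha5 network of kidney and lung basement membranes, passed no contrast. Col4a4 ran from 0.582 to 1.46 FPKM over the 16 libraries, and its head-to-head neighbour Col4a3 reached at most 0.0514 FPKM. Col4a6 had 1 read in all libraries together, although it is head to head with Col4a5 on the X chromosome, with 1308 bases between the starts. Of the 4 type IV chains tested, Col4a1 and Col4a2 among them, 3 had a positive log2 fold change in BdP tumours averaged over treatments. The median was 0.44, against a median of 0.01 over all genes. The same contrast in limma voom gave 0.11 for Col4a5 and -0.12 for Col4a4.

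Col18a1 and Col15a1, the multiplexins that sit at basement membranes and carry the C-terminal endostatin and restin fragments, were not called in any of the contrasts. Col18a1 measured 1.32, 2.20, 0.249 and 1.25 FPKM in BdP cisplatin tumours and 0.523, 0.805, 0.570 and 0.608 FPKM in BdP PBS tumours, against 4.92, 3.31, 1.76 and 2.45 FPKM in WT cisplatin tumours and 1.02, 1.38, 0.345 and 3.02 FPKM in WT PBS tumours. BdP and WT tumours overlapped under either treatment. Averaged over treatments the log2 fold change was -0.68 ± 0.23 (0.941 ± 0.626 FPKM in BdP and 2.28 FPKM in WT tumours; limma adjusted p = 0.0915). It passed the threshold without WT PBS 3 (-0.81, adjusted p = 0.0305) and with the added term for Y-chromosome transcripts (-0.75 ± 0.19, adjusted p = 0.0223). Limma voom on recovered reads gave Col18a1 a larger change, -1.21 ± 0.48 averaged over treatments, and did not call it (adjusted p = 0.134). In WT tumours it averaged 3.11 ± 1.36 FPKM under cisplatin and 1.44 ± 1.14 FPKM under PBS (SD, n = 4 each; 0.80 ± 0.33, adjusted p = 0.603). Col15a1 measured 2.29, 1.89, 1.34 and 2.96 FPKM in BdP cisplatin tumours and 3.23, 1.38, 2.86 and 2.54 FPKM in BdP PBS tumours, against 2.78, 1.504, 2.11 and 3.04 FPKM in WT cisplatin tumours and 1.05, 1.69, 1.08 and 3.11 FPKM in WT PBS tumours. The groups overlapped throughout, and no contrast called it. Col18a1 (chr10:77052178-77166548, minus strand) overlaps Slc19a1. Slc19a1, a folate carrier, averaged 4.02 FPKM and was not called in BdP tumours (log2 fold change 0.08), and the strand setting of the read counting is not given in the sources used here.

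Fibrillar collagens were low in all 4 groups, and none was called in limma on log2(FPKM + 1) in any contrast. Col1a1 measured 3.08, 0.919, 2.49 and 3.28 FPKM in BdP cisplatin tumours and 3.88, 4.36, 2.61 and 2.59 FPKM in BdP PBS tumours, against 0.873, 1.93, 5.99 and 4.74 FPKM in WT cisplatin tumours and 2.65, 2.56, 10.3 and 2.58 FPKM in WT PBS tumours. WT PBS 3 stood far above the rest of its group, and the genotypes overlapped. Col1a2 measured 1.01, 0.716, 0.912 and 1.01 FPKM in BdP cisplatin tumours and 1.10, 1.51, 0.776 and 0.705 FPKM in BdP PBS tumours, against 0.191, 0.670, 1.62 and 2.00 FPKM in WT cisplatin tumours and 1.32, 0.801, 2.32 and 0.752 FPKM in WT PBS tumours. The same library was again the highest. Col1a1 (chr11:94936224-94953042, plus strand) and Col1a2 encode the chains of type I collagen, the main fibril of skin and tendon. Col3a1 measured 0.824, 0.977, 1.07 and 1.195 FPKM in BdP cisplatin tumours and 1.69, 2.61, 1.16 and 2.08 FPKM in BdP PBS tumours, against 0.503, 0.686, 2.15 and 1.76 FPKM in WT cisplatin tumours and 1.56, 0.665, 4.79 and 0.706 FPKM in WT PBS tumours. Type III collagen, a homotrimer found with type I in soft tissue, was also highest in WT PBS 3. Averaged over treatments, the log2 fold change in BdP tumours was -0.19 ± 0.31 for Col1a1 (2.90 ± 1.04 FPKM in BdP and 3.95 FPKM in WT tumours; limma adjusted p = 0.730), -0.10 for Col1a2 and 0.02 for Col3a1. Summed fibroblast markers in WT PBS 3, mostly Fbln1, Pdpn and Thy1, were 74.6 FPKM, the highest of the WT libraries. Macrophage markers were 805 FPKM there, the highest of all 16. The list was divided in that library. Fbn1, the fibrillin of elastic microfibrils, was at 0.771 FPKM, the highest of all 16. Thy1, Pdpn and Fap, at 18.2, 17.0 and 0.0622 FPKM, were the highest of the WT libraries, as was the leukocyte sum (353 FPKM). Fbln1, Dcn, Lum, Postn, Mfap5 and Dpt were at 36.3, 0.389, 0.144, 0.400, 0.283 and 0.386 FPKM. All of these were higher in WT PBS 1, at 51.6, 0.614, 1.67, 1.12, 0.856 and 1.19 FPKM. In WT PBS 1, 1 read on a gene of 5000 bases was worth 0.102 FPKM, so its values below Fbln1 rest on few reads. Pdgfra and Pdgfrb, at 0.0624 and 0.607 FPKM in WT PBS 3, were higher in WT PBS 4, at 0.125 and 0.995 FPKM. Their part in the high value of type I and III transcripts was not tested.

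Type V collagen sets the diameter of type I fibrils. Col5a1 measured 1.11, 0.736, 0.706 and 0.904 FPKM in BdP cisplatin tumours and 1.02, 1.03, 1.01 and 0.940 FPKM in BdP PBS tumours, against 1.06, 1.11, 1.69 and 1.62 FPKM in WT cisplatin tumours and 0.905, 1.10, 1.41 and 1.92 FPKM in WT PBS tumours. In WT PBS 3 and 4 and WT cisplatin 3 and 4 Col5a1 lay above every BdP library, and the other WT libraries were in the BdP range. The log2 fold change averaged over treatments was -0.27 ± 0.11 (0.932 ± 0.145 FPKM in BdP and 1.35 FPKM in WT tumours; limma adjusted p = 0.128), and limma voom on the recovered reads called it lower (-0.56 ± 0.15, adjusted p = 0.0418). Col5a2 measured 0.588, 0.267, 0.305 and 0.490 FPKM in BdP cisplatin tumours and 0.669, 0.536, 0.334 and 0.328 FPKM in BdP PBS tumours, against 0.165, 0.289, 0.533 and 0.897 FPKM in WT cisplatin tumours and 0.427, 0.210, 0.604 and 0.197 FPKM in WT PBS tumours. Col5a2, its partner chain, was below 1 FPKM in every library. The other fibrillar chains tested were Col5a3, a further type V chain, at 0.892 to 3.27 FPKM, Col11a2, a type XI chain, at 0.2004 to 2.31 FPKM, and Col2a1, the type II chain of cartilage, at 0.110 to 2.48 FPKM. Their means were 1.95, 1.09 and 0.998 FPKM. Of the 7 fibrillar chains tested, 3 had positive and 4 negative log2 fold changes in BdP tumours, with a median of -0.10.

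Among the remaining classes, Col16a1 was the most abundant. It encodes a FACIT, a collagen with interrupted triple helices that attaches to other matrix assemblies. Col16a1 measured 6.78, 5.35, 5.42 and 6.40 FPKM in BdP cisplatin tumours and 6.86, 4.37, 6.44 and 9.29 FPKM in BdP PBS tumours, against 5.23, 6.61, 4.45 and 5.84 FPKM in WT cisplatin tumours and 2.35, 5.25, 3.98 and 6.79 FPKM in WT PBS tumours. WT PBS 1 was the lowest and BdP PBS 4 the highest, and the groups overlapped. Its log2 fold change in BdP tumours was 0.50 ± 0.23 under PBS (limma adjusted p = 0.254) and 0.30 averaged over treatments (adjusted p = 0.258). Col9a1 measured 1.82, 3.30, 0.559 and 1.36 FPKM in BdP cisplatin tumours and 0.294, 0.491, 1.26 and 0.989 FPKM in BdP PBS tumours, against 1.24, 1.37, 0.181 and 0.588 FPKM in WT cisplatin tumours and 1.21, 1.28, 0.147 and 1.45 FPKM in WT PBS tumours. Col9a1, a FACIT of cartilage, ranged widely within each group. Col20a1 measured 0.372, 0.169, 0.248 and 1.48 FPKM in BdP cisplatin tumours and 1.22, 0.353, 1.28 and 2.09 FPKM in BdP PBS tumours, against 0.995, 0.611, 0.694 and 1.18 FPKM in WT cisplatin tumours and 0.797, 0.629, 0.198 and 0.898 FPKM in WT PBS tumours. Col20a1, another FACIT, was high in a single BdP cisplatin library and low in the other 3. Col12a1 measured 0.173, 0.117, 0.223 and 0.270 FPKM in BdP cisplatin tumours and 0.222, 0.338, 0.318 and 0.223 FPKM in BdP PBS tumours, against 0.0615, 0.174, 0.143 and 0.347 FPKM in WT cisplatin tumours and 0.101, 0.196, 0.257 and 0.122 FPKM in WT PBS tumours. This FACIT of type I fibrils was below 0.5 FPKM in every library and was not tested.

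Col10a1, the network-forming collagen of hypertrophic cartilage, gave the smallest limma p of the collagens for cisplatin in each genotype and averaged over both. Col10a1 measured 1.75, 2.23, 0.603 and 1.21 FPKM in BdP cisplatin tumours and 1.12, 0.256, 0.818 and 0.575 FPKM in BdP PBS tumours, against 1.39, 1.86, 1.93 and 1.17 FPKM in WT cisplatin tumours and 0.491, 0.390, 0.537 and 0.363 FPKM in WT PBS tumours. Every WT cisplatin library lay above every WT PBS library, while the BdP groups overlapped. In WT tumours it averaged 1.59 ± 0.367 FPKM under cisplatin and 0.445 ± 0.0824 FPKM under PBS (SD, n = 4 each), a log2 fold change of 0.83 ± 0.21 (limma adjusted p = 0.425). Such a separation upward was seen in 1.75% of all genes tested. In BdP tumours it averaged 1.45 ± 0.702 FPKM under cisplatin and 0.692 ± 0.367 FPKM under PBS (0.51 ± 0.21, limma adjusted p = 1). Col10a1 (chr10:34389981-34397085, plus strand) lies within Nt5dc1, which is on the opposite strand. Nt5dc1 averaged 5.25 FPKM and had a log2 fold change of -0.03 for cisplatin in WT tumours (adjusted p = 0.954). Of 5 cartilage and bone markers, Ibsp was at 0 in all 16 libraries, Acan in 14, Bglap in 11 and Comp in 8. Matn3, a cartilage matrix protein, was at 0 in none, with a mean of 0.502 FPKM and a highest value of 1.009 FPKM. The sums of the list ran from 0.266 to 0.955 FPKM in BdP cisplatin, 0.0220 to 0.878 in BdP PBS, 0.190 to 1.009 in WT cisplatin and 0.716 to 1.14 FPKM in WT PBS tumours, and their part in the values of Col10a1 was not tested.

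Type VI collagen, whose chains form beaded filaments around cells, was also low. Col6a1 measured 1.67, 0.317, 0.453 and 0.761 FPKM in BdP cisplatin tumours and 0.899, 1.33, 1.14 and 1.21 FPKM in BdP PBS tumours, against 0.222, 0.662, 1.00 and 1.79 FPKM in WT cisplatin tumours and 0.701, 1.03, 0.714 and 0.812 FPKM in WT PBS tumours. Its values were spread over all 4 groups without order. Col6a2 measured 0.598, 0.318, 0.431 and 0.411 FPKM in BdP cisplatin tumours and 0.699, 0.841, 0.538 and 0.246 FPKM in BdP PBS tumours, against 0.0260, 0.358, 0.753 and 0.787 FPKM in WT cisplatin tumours and 0.307, 0.264, 0.489 and 0.496 FPKM in WT PBS tumours. WT cisplatin 1 was nearly without it. Col6a3 measured 0.804, 0.225, 0.324 and 0.710 FPKM in BdP cisplatin tumours and 0.415, 0.628, 0.492 and 0.398 FPKM in BdP PBS tumours, against 0.0452, 0.355, 0.791 and 0.961 FPKM in WT cisplatin tumours and 0.0428, 0.464, 0.667 and 0.566 FPKM in WT PBS tumours. WT PBS 1 and WT cisplatin 1 were the lowest. Col6a2 and Col6a3 did not pass the filter for testing, and no contrast called Col6a1. In all, 26 of the 44 collagens did not pass, and the highest value any of them reached was 0.961 FPKM, in Col6a3. Of these 26, 20 were below 0.5 FPKM in every library and 14 had at most 100 reads in all 16 libraries together, and none of the 26 was tested. Among the low genes were 3 further fibrillar chains, of which Col27a1 reached 0.404 FPKM, Col11a1 0.183 FPKM and Col24a1 0.0240 FPKM. The type IX partners Col9a3 and Col9a2 reached 0.806 and 0.764 FPKM, and Col14a1, a FACIT of type I fibrils, 0.511 FPKM. Col7a1, the anchoring fibril of the skin's basement membrane, reached 0.207 FPKM. The 4 transmembrane collagens, Col13a1, Col17a1, Col23a1 and Col25a1, reached at most 0.279 FPKM, in Col23a1. Col8a1 and Col8a2, network-forming chains of vessels and cornea, reached 0.394 and 0.145 FPKM. Col6a4, Col6a5, Col6a6, Col19a1, Col22a1, Col26a1 and Col28a1 were listed at 0 in 8 to 15 of the 16 libraries.

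As shares of all collagen transcripts, Col4a1 and Col4a2 together held 44.6% to 60.9% of the summed collagen FPKM in BdP tumours (mean 54.3 ± 5.67) and 29.0% to 49.3% in WT tumours (38.9 ± 6.04; SD, n = 8 each). By group the means were 58.0 ± 3.03% in BdP cisplatin, 50.6 ± 5.44% in BdP PBS, 40.2 ± 6.49% in WT cisplatin and 37.6 ± 6.20% in WT PBS tumours (SD, n = 4 each). Fibrillar collagens held 10.7% to 23.4% in BdP and 14.1% to 45.2% in WT tumours. In absolute terms the type IV sum was 42.7 ± 12.4 FPKM in BdP and 24.8 ± 7.40 FPKM in WT tumours. The fibrillar sum was 11.03 ± 1.87 FPKM in BdP and 12.8 ± 4.49 FPKM in WT tumours, and that of the other classes was 16.5 ± 3.31 and 15.5 ± 4.06 FPKM in BdP and WT tumours. Col4a1 was the highest collagen in 15 of 16 libraries, and Col1a1 took its place in WT PBS 3. The ratio of Col4a1 to Col4a2 was 1.34 ± 0.124 in BdP tumours, from 1.09 to 1.51, and 1.61 ± 0.226 in WT tumours, from 1.17 to 1.91. These shares follow from the values above and were given no test. In bulk RNA, fewer cells of a type and less RNA per cell cannot be told apart.

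**Figure D3:**
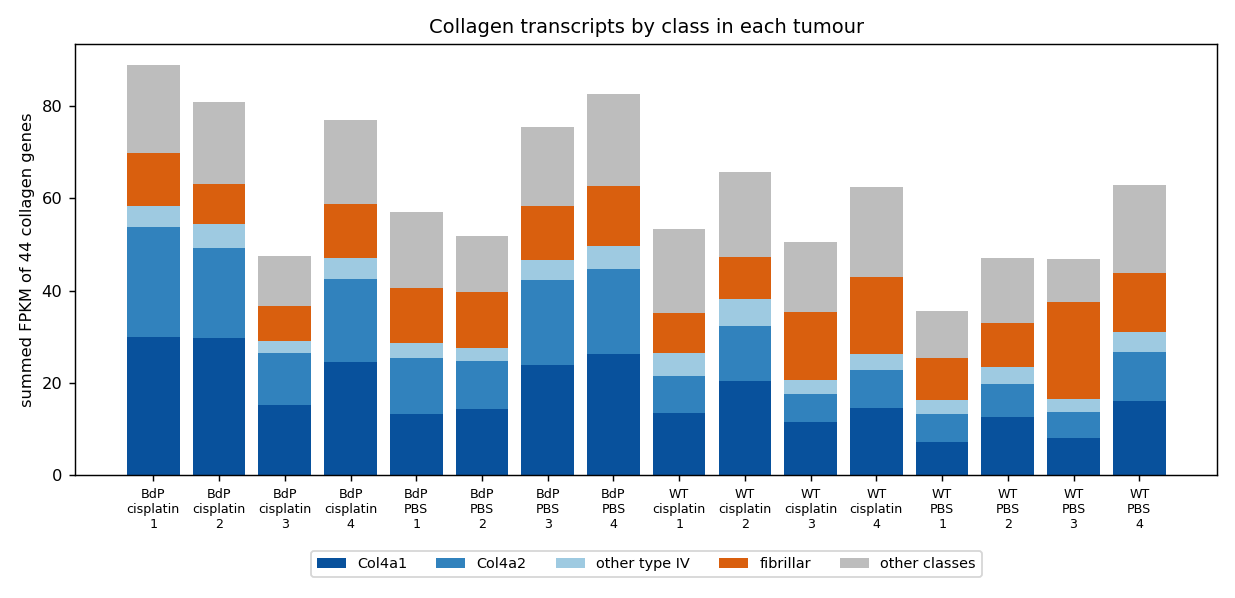
Summed FPKM of the 44 collagen genes in each of 16 tumours, stacked by Col4a1, Col4a2, the other type IV chains, fibrillar chains and other classes, with BdP tumours left of WT tumours. The blue type IV part is taller in most BdP tumours, and fibrillar transcripts are the largest part in WT PBS 3.

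No collagen passed the adjusted threshold for cisplatin. In limma, 0 of 18 collagens were called for cisplatin over PBS in WT tumours, where 0.00812% of all genes (1 gene) were called, and 0 of 18 in BdP tumours, where 0% were. At an unadjusted p below 0.05 there were 2 collagens in WT tumours, Col10a1 and Col18a1, where 7.74% of all genes passed, and 1 in BdP tumours, Col10a1, where 4.4% did. Limma voom called 0 collagens in each, where it called 3 of all genes in WT and 0 in BdP tumours. At an unadjusted p below 0.05 it passed 2 collagens in each. Of all 12319 genes, 586 in WT and 811 in BdP tumours passed likewise. Averaged over genotypes, 0 collagens were called (0% of all genes; limma voom 0), and 2 passed unadjusted, where 6.34% of all genes did. Col10a1 stood there at 0.67 ± 0.15 (limma adjusted p = 0.427), Col18a1 at 0.60 ± 0.23 (adjusted p = 0.713) and Col4a1 at 0.40 ± 0.20 (adjusted p = 0.808). In WT tumours Col4a5 averaged 3.17 FPKM under cisplatin and 2.29 FPKM under PBS (0.34 ± 0.21, adjusted p = 0.669). In BdP tumours Col20a1 averaged 0.568 FPKM under cisplatin and 1.23 FPKM under PBS (-0.52 ± 0.27), and Col9a1 averaged 1.76 ± 1.15 and 0.757 FPKM under cisplatin and PBS (0.59 ± 0.33), both at an adjusted p of 1. The median log2 fold change of the 18 collagens under cisplatin was -0.08 for BdP tumours and 0.21 for WT tumours, against 0.00 for BdP and -0.01 for WT tumours over all genes.

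No collagen passed the threshold for a difference in cisplatin response between the genotypes. The interaction called 0 of 18 collagens in limma (0% of all genes called), with 0 at an unadjusted p below 0.05, where 5.61% of all genes passed. Limma voom called 0 collagens (1 of all genes), with 1 at an unadjusted p below 0.05, where 636 of 12319 genes passed. In limma, the 3 collagens with the smallest p were Col20a1 (-0.73 ± 0.38), Col9a1 (0.72 ± 0.47) and Col15a1 (-0.49 ± 0.35), with adjusted p of at least 0.835. The contrasts within treatments share libraries with those within genotypes, so their values are not independent.

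**Figure D4:**
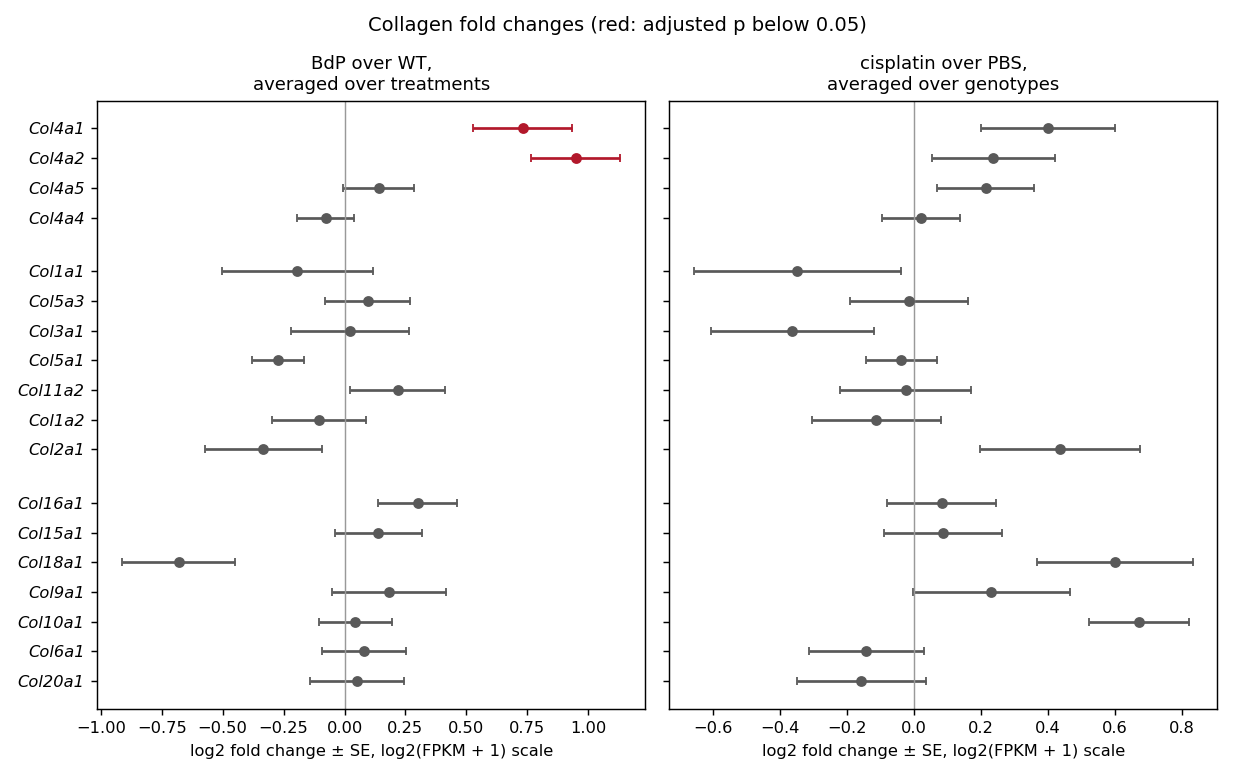
Log2 fold changes ± SE of the 18 collagen genes tested, on the log2(FPKM + 1) scale, for BdP over WT averaged over treatments on the left and cisplatin over PBS averaged over genotypes on the right. Only Col4a1 and Col4a2 on the left are red, which marks an adjusted p below 0.05.

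Col4a1 with Col4a2, and Col1a1 with Col1a2, varied together between tumours. Over 16 libraries of log2(FPKM + 1), Col4a1 and Col4a2 had Pearson's r = 0.946 and Spearman's rho = 0.921, and r was 0.940 for deviations from the group means. For Col1a1 and Col1a2 these were 0.899, 0.912 and 0.903. Permutation gave p = 1e-05 for r in both, the smallest that 100000 permutations can give (5e-05 adjusted over the 10 pairs examined). Without the 2 libraries farthest from the median of the first chain, r was 0.944 and 0.797. Col3a1 and Col1a1, which form separate molecules in shared fibrils, had r = 0.827 and rho = 0.832 (permutation adjusted p = 0.0002), with r = 0.680 after the same omission. Col5a2 and Col3a1 had r = 0.622 and rho = 0.750 (adjusted p = 0.0162). Col6a3 and Col6a1 had r = 0.744 and rho = 0.718 (adjusted p = 0.00203), and Col6a1 and Col6a2 had r = 0.665 and rho = 0.582 (adjusted p = 0.00932), the last falling to r = 0.421 without the 2 farthest libraries. The other 4 pairs did not pass the threshold. Col4a1 and Col1a1 had r = -0.463 and rho = -0.368 (permutation adjusted p = 0.0825), and Col5a1 and Col1a1 had r = 0.503 and rho = 0.379 (adjusted p = 0.0674). Col15a1 and Col4a1 had r = 0.460 and rho = 0.344 (adjusted p = 0.0825), with r = 0.0766 without the 2 farthest libraries, so that value rested on them. Col18a1 and Col4a1 had r = 0.113 and rho = 0.132 over all libraries (adjusted p = 0.676), but their deviations from the group means had r = 0.626 (adjusted p = 0.0357). All these correlations share the depth and scaling of each library, and no background of other gene pairs was computed.

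**Figure D5:**
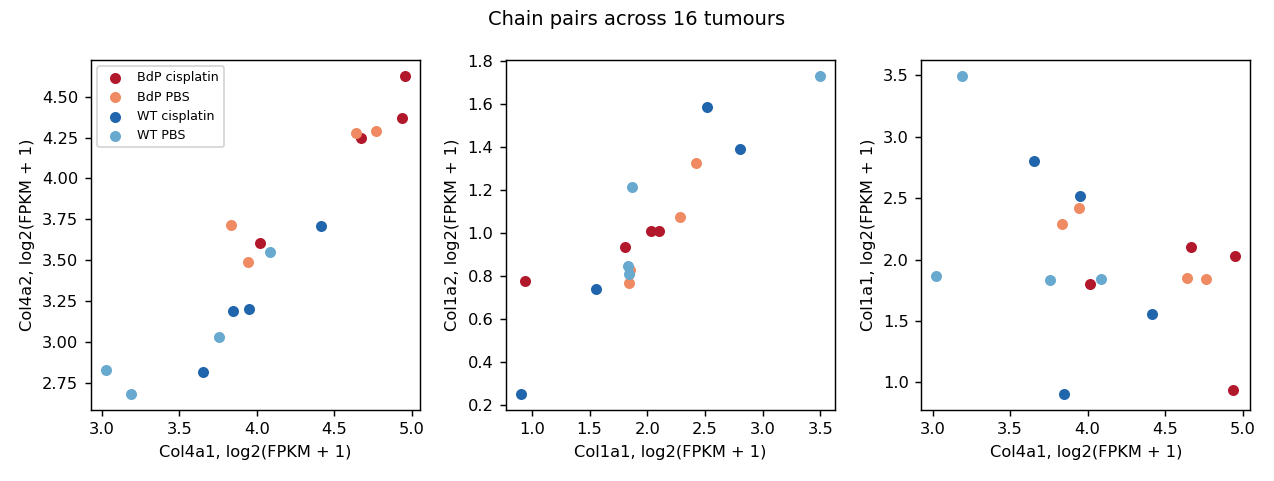
Log2(FPKM + 1) of Col4a1 against Col4a2, Col1a1 against Col1a2, and Col4a1 against Col1a1, with 1 point per tumour coloured by group. The first and second pairs lie along a rising line, and the third does not.

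Genes that modify, cross-link or bind collagen moved in both directions between the genotypes, with the same 5.86% of all genes called as the background. Of 17 tested genes for chain modification and folding (19 listed), 2 were higher in BdP tumours and 0 lower in limma averaged over treatments. Colgalt1, which adds galactose to hydroxylysine of collagen chains, averaged 33.0 ± 1.94 FPKM in BdP and 22.0 ± 3.90 FPKM in WT tumours (SD, n = 8 each), and every BdP library was higher (0.58 ± 0.09, adjusted p = 0.0027). Mia3, which loads procollagen into transport carriers, averaged 19.8 FPKM in BdP and 15.6 FPKM in WT tumours (0.34 ± 0.09, adjusted p = 0.0444). Serpinh1, the collagen chaperone HSP47, averaged 287 FPKM in BdP and 272 FPKM in WT tumours (0.07) and was not called. Of 8 tested genes for trimming and assembly (19 listed), 0 were higher and 2 lower. Sparc, a collagen-binding matrix protein, averaged 63.3 ± 10.4 FPKM in BdP and 159.8 ± 33.3 FPKM in WT tumours (-1.31 ± 0.12, adjusted p = 2.42e-05). Loxl2, a lysyl oxidase that cross-links collagen, averaged 3.90 ± 1.19 FPKM in BdP and 9.87 ± 1.99 FPKM in WT tumours (-1.16 ± 0.10, adjusted p = 2.19e-05). In both, every BdP library was lower than every WT library. The share of all genes whose 16 libraries separate by genotype, as in Colgalt1 and in Lamb1 below, is not given here.

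Among partners of type IV collagen in basement membranes, those called were lower in BdP tumours. Of 8 tested (10 listed), 0 were higher and 2 lower. Lamb1, the beta1 chain of laminin, averaged 0.440 ± 0.203 FPKM in BdP and 3.61 ± 1.72 FPKM in WT tumours (SD, n = 8 each), with every BdP library lower (limma -1.59 ± 0.10, adjusted p = 3.32e-07). Lama4, a laminin alpha chain of vessels, averaged 6.29 FPKM in BdP and 8.33 FPKM in WT tumours (-0.35 ± 0.08, adjusted p = 0.0267). Lamc1, Lamb2 and Agrn had log2 fold changes of 0.40, 0.33 and 0.30 with adjusted p of 0.133, 0.101 and 0.110. Lamb1 was also the 1 gene of all tested that was called for cisplatin in WT tumours, at 5.18 ± 0.311 FPKM under cisplatin and 2.04 ± 0.427 FPKM under PBS (SD, n = 4 each; 1.03 ± 0.14, adjusted p = 0.0275). Of 10 collagen receptors and uptake genes, 5 were tested and none was called. Itgb1, the beta chain of collagen-binding integrins, had a log2 fold change of -0.15 (adjusted p = 0.142) and Itga1, an alpha chain that pairs with it, 0.19 (adjusted p = 0.218).

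Defining markers of stromal cells were at low levels. Of 12 fibroblast markers, 3 had a mean of at least 1 FPKM (Fbln1, Pdpn and Thy1, at 27.9, 14.9 and 9.60 FPKM), while Pdgfra averaged 0.0784 FPKM with 0 in 2 libraries and Fap 0.0375 FPKM with 0 in 5. The summed fibroblast list ran from 47.0 to 76.5 FPKM in BdP cisplatin, 43.6 to 90.6 in BdP PBS, 28.6 to 46.6 in WT cisplatin and 37.4 to 74.6 in WT PBS tumours. Of 10 endothelial markers, 3 reached 1 FPKM (Egfl7, Pecam1 and Vwf, at 2.62, 1.54 and 1.19 FPKM), with Cdh5 at 0.304 FPKM and Tek at 0 in 13 libraries. The endothelial sums ran from 3.39 to 8.52 FPKM in BdP cisplatin, 5.70 to 10.9 in BdP PBS, 3.79 to 6.57 in WT cisplatin and 5.15 to 8.24 in WT PBS tumours. Of 7 pericyte markers only Mcam reached that level, at a mean of 19.7 FPKM, and it was lower in BdP tumours (11.8 FPKM in BdP and 27.7 FPKM in WT tumours; limma -1.13 ± 0.23, adjusted p = 0.00975). Mcam also serves as a melanoma adhesion molecule. Of 6 leukocyte markers, 6 had a positive log2 fold change in BdP over WT tumours averaged over treatments, with a median of 1.51. All 6 passed an unadjusted p below 0.05 in limma, where 25.8% of all genes did, and 0 were called by limma or limma voom after adjustment. Their sums ran from 153 to 369 FPKM in BdP cisplatin, 94.98 to 631 in BdP PBS, 23.5 to 177 in WT cisplatin and 13.2 to 353 FPKM in WT PBS tumours. Of 7 macrophage markers, 7 had a positive log2 fold change, with a median of 0.71, 0 of them at an unadjusted p below 0.05 and 0 called by limma or limma voom. Their sums ran from 60.9 to 593 FPKM in BdP cisplatin, 222 to 802 in BdP PBS, 52.5 to 232 in WT cisplatin and 46.6 to 805 FPKM in WT PBS tumours. All 7 melanocytic markers were expressed, with sums of 4648 to 8596 FPKM. The part of any cell type in the levels of Col4a1 and Col4a2 was not tested.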

How the data were processed

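RNA was sequenced from 16 tumours in 4 groups of 4. The deposited values are FPKM, made by the authors; per the submitters' processing notes, CASAVA, HISAT2 2.0.5 and featureCounts 1.5.0-p3 were used on GRCm38 (mm10). FPKM multiplied by gene length gave whole reads for 100% of values within 0.1 read, and the divisor equalled the size factor (ratio 1), so values were already scaled between libraries. Total reads per library ran from 10051843 to 27055771.

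The 12319 genes that reached 1 FPKM in at least 4 libraries were fitted as log2(FPKM + 1) in limma 3.58.1 (R 4.3.3; lmFit and eBayes with a trend, all 16 libraries, 7 contrasts of group means, two-sided). A gene was called where its p, adjusted by Benjamini-Hochberg over all of them, was below 0.05. This scale understates changes of low genes. Correlations used 100000 permutations (Python 3.11.15, numpy 2.4.6, scipy 1.17.1, pandas 2.3.3). The fit was tested on simulated data. Alternatives were limma voom on recovered reads, other pseudocounts, filters and scalings, a replicate block, robust moderation and libraries left out. A term for Y-chromosome transcripts, at a summed level above 0.2 FPKM, was added after the values were seen.

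Members and lists were chosen with earlier results of these data known. Values in every library are given for Col1a1, Col1a2, Col3a1, Col5a1, Col5a2, Col4a1, Col4a2, Col4a5, Col6a1, Col6a2, Col6a3, Col12a1, Col15a1 and Col18a1, for collagens called, and for the 3 with the smallest p in each contrast. Of other lists, called members and those with the smallest p are named. Genes that overlap another on the chromosome are given with it, since the strand setting is not given in the sources used here.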

Additional observations from a re-analysis of the deposited data

Results flagged for a closer look

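In each group of 4 libraries, the highest and the lowest value were compared with the range of the group. Over 72 combinations of a collagen and a group, 3 libraries stood apart, where chance gives about 1 in 20. Col1a1 was at 10.3 FPKM in WT PBS 3, against 2.56 to 2.65 FPKM in the rest of the group. Col4a5 was at 1.97 FPKM in BdP cisplatin 3, against 3.57 to 3.71 FPKM in the others. Col20a1 was at 1.48 FPKM in BdP cisplatin 4, against 0.169 to 0.372 FPKM in the others.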

How the results depend on the processing

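The averaged genotype contrast called 2 collagens, and 2 again with a pseudocount of 0.1, at least 5 FPKM or robust moderation. Limma voom also called 2, but these were Col4a2, higher, and Col5a1, lower, where it called 854 of all 12319 genes. The averaged contrast gave 1 with no filter on low values, 1 after rescaling to nuclear protein-coding genes and 0 in TPM, where Col4a2 had a log2 fold change of 1.49 (adjusted p = 0.0764) and Col4a1 1.26 (adjusted p = 0.191). It called 0 without the 3 libraries richest in mitochondrial reads, and 1 to 3 with 1 library left out. With the term for Y-chromosome transcripts the count was 3, and it was 1 under PBS and 1 under cisplatin, where it was otherwise 0. For the collagens called in a contrast and the 3 with the smallest p in each, 533 values were recomputed under these settings, of which 18 lost and 4 gained a call; Col5a1 in voom is not among them.

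The replicate numbers do not pair the samples: deviations of same-numbered libraries had r from -0.613 to 0.415, and 3 of 16 libraries correlated best with their own number. A replicate block left 1 collagen called, Col4a2 (adjusted p = 0.0166), with Col4a1 at 0.0539, and 499 genes.

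For all genes, 722 were called in the averaged genotype contrast, 370 to 1619 with 1 library left out, 449 with no filter, 413 rescaled, 435 in TPM and 1540 with the Y-chromosome term. Under PBS 122 became 25 to 356 with 1 library left out, 56 with no filter, 49 rescaled, 6 in TPM, 81 with the block, 50 without the 3 mitochondria-rich libraries and 274 with the Y-chromosome term. Under cisplatin 132 became 50 to 310 with 1 library left out, 76 at 5 FPKM, 21 in TPM, 231 in voom, 80 with the block and 55 without the 3 libraries. Cisplatin in WT tumours called 0 to 3 with 1 library left out and 3 in voom, and in BdP tumours 3 in TPM. The cause of these changes was not tested.

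Pearson's r with 1 library left out ran from 0.936 to 0.961 for Col4a1 and Col4a2, 0.860 to 0.931 for Col1a1 and Col1a2, 0.704 to 0.864 for Col3a1 and Col1a1, 0.566 to 0.698 for Col5a2 and Col3a1, 0.662 to 0.7996 for Col6a3 and Col6a1, and 0.315 to 0.535 for Col15a1 and Col4a1. Col6a1 and Col6a2 (0.530 to 0.757) lost the call without WT cisplatin 1. Col5a1 and Col1a1 (0.414 to 0.655) gained one without WT PBS 4, as did Col4a1 and Col1a1 (-0.587 to -0.284) without WT PBS 1 (-0.566) or WT cisplatin 1. Col18a1 and Col4a1 (-0.0304 to 0.212) changed sign without WT PBS 3.

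The number of reads limits low genes, most of all in WT PBS 1. The 26 collagens below the filter were not tested, and the part of cell types in any value was not tested.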
